A study of Mus musculus with 6 samples.

Results

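Genes for 9 transporters of peptides and amino acids were examined in the ileal wall of mice bred to lack, or to keep, the interleukin-17 (IL-17) receptor gene Il17ra in the secretory epithelium. The 9 were named by symbol among the 23402 rows of an FPKM table (fragments scaled to transcript length and to a measure of library size): Slc15a1, Slc15a2, Slc6a19, Slc7a9, Slc3a1, Slc7a7, Slc3a2, Slc7a8 and Slc1a1. Of these, 8 were chosen for what they carry, and Slc15a2 was taken because it stood higher in the KO libraries, so its difference between the groups is described here without a test. All 9 passed the filter of a mean of at least 1 FPKM over the 6 libraries, which left 12695 genes to be tested. The libraries labelled KO came from 3 Il17rafl/fl;Atoh1-cre+ mice, and those labelled WT from 3 Il17rafl/fl;Atoh1-cre- littermates, with 3 libraries in each group. Both groups therefore carried the floxed alleles, both were 6 weeks old, and both had dextran sodium sulfate (DSS, a polysaccharide that injures the gut epithelium) in their drinking water before tissue was taken on day 6. The comparison is aimed at what loss of the receptor in Atoh1-expressing cells does to the gut of mice given DSS. Every KO mouse and no WT mouse carried Cre, so loss of the receptor and Cre itself cannot be told apart. Injury of the sampled tissue was not measured here. The Atoh1 driver acts in the secretory lineage (Paneth, goblet and enteroendocrine cells), whereas most of these transporters belong to absorptive enterocytes, at which the deletion is not aimed. No mice without DSS were analysed here.

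Dietary protein is absorbed partly as short peptides and partly as free amino acids. At the brush border, the proton-coupled carrier PEPT1 (Slc15a1) brings in dipeptides and tripeptides, a sodium-coupled carrier (Slc6a19) brings in neutral amino acids, the pair of Slc7a9 and Slc3a1 exchanges cystine and dibasic amino acids for neutral ones, and Slc1a1 brings in glutamate and aspartate. On the basolateral side, the light chains Slc7a7 and Slc7a8 pair with the heavy chain Slc3a2 to pass amino acids on to the blood. PEPT2 (Slc15a2), the high-affinity relative of PEPT1, is best known from the kidney and brain.

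Slc15a1, Slc6a19 and Slc3a1 were, like Slc7a9, high in the same libraries, and Slc15a2 was the member chosen as higher in KO. The start-site regions of these 4, without Slc7a9, are shown. Each is the run of 250 bases before the first start site that RefSeq lists (GRCm38.p6; for Slc6a19 this start lies inside the longer gene span of the annotation used below), 5′ to 3′ on the strand of the gene, and none of these bases lies in an annotated exon of its own gene. Capitals mark matches to any of 6 short motifs, listed after the sequences.
Slc15a1, chr14:121505255-121505504, minus strand: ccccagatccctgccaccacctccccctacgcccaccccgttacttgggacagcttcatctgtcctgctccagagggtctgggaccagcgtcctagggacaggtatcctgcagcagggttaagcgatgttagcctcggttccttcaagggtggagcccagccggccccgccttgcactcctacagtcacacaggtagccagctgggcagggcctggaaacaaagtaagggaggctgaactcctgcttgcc
Slc6a19, chr13:73692637-73692886, minus strand: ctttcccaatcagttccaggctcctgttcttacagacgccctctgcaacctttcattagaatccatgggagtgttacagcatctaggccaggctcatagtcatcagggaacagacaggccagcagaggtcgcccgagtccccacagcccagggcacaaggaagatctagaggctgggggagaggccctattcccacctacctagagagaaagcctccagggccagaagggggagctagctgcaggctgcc
Slc3a1, chr17:85028097-85028346, plus strand: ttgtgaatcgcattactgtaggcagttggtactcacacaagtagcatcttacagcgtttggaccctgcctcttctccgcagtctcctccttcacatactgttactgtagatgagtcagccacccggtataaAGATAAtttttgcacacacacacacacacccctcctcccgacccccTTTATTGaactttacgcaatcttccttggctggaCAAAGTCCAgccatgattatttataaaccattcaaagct
Slc15a2, chr16:36784963-36785212, minus strand: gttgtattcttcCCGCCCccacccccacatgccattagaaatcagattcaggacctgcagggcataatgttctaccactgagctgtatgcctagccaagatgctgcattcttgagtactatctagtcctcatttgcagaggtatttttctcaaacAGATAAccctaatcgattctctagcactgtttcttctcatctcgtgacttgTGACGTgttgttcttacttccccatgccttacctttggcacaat
The motifs were chosen after the sequences were seen and were searched on both strands in the windows of 27025 genes. CAAAGTCCA, bound by HNF4 factors, occurred in 0.381% of those windows. GTTAAT, a part of the HNF1 site, occurred in 6.52% of them. CAATAAA, bound by CDX factors, occurred in 4.42%, and AGATAA, bound by GATA factors, in 10.3%. GGGCGG, the GC box, occurred in 32.9%, and the CREB/ATF core TGACGT in 6.56%. In the Slc3a1 window the HNF4 motif began 39 bases before the start site, the CDX motif, on the opposite strand, 73 bases before it, and the GATA motif 119 bases before it. The Slc15a2 window held the GATA motif 95 bases, the CREB/ATF motif 44 bases and, on the opposite strand, the GC box 238 bases before its start. The windows of Slc15a1 and Slc6a19 held none of the 6. Of the 9 members, AGATAA was found before Slc15a2, Slc7a9 and Slc3a1, and GGGCGG before Slc15a2, Slc3a2, Slc7a8 and Slc1a1; a match describes letters, not a bound site.

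Depth was estimated at about 7.99e+06 to 9.29e+06 fragments from the steps between the lowest values of each library. The steps were sought in the same fixed window for all libraries, so the likeness of these depths is partly built in. Spearman's rho between libraries, taken over genes, lay between 0.98 and 0.985. Il17ra itself stood at 7.93, 8.36 and 6.07 FPKM in KO 1 to 3, against 6.04, 5.91 and 6.53 FPKM in WT 1 to 3, so it was not lower in KO whole tissue and does not check the labels. By Xist and the Y-linked gene Ddx3y, 2 of the 3 KO mice and 1 of the 3 WT mice were female. The enterocyte list (Vil1, Alpi, Fabp2, Apoa1, Sis, Cdhr5, Krt20 and Epcam) summed to 5599 to 11859 FPKM in KO libraries, against 7135 to 12259 FPKM in WT libraries, and was highest in KO 1 and WT 3. The B cell list summed to 68.9 and 83.2 FPKM in KO 1 and KO 2 and to 11.3 FPKM in KO 3, against 7.42 to 16.0 FPKM in WT libraries. The macrophage list summed to 122 to 151 FPKM in KO and 113 to 142 FPKM in WT libraries, and the smooth muscle list to 424 to 522 FPKM in KO and 483 to 643 FPKM in WT libraries. The ranges of the groups overlapped in each of these lists. Enteric glia summed to 2.16 to 3.77 FPKM in KO and 2.11 to 4.31 FPKM in WT libraries, and follicle-associated epithelium to 35.4 to 48.9 FPKM in KO and 32.2 to 44.2 FPKM in WT libraries, again with overlap. The mean log2 level of the follicle-associated list was 2.86, 2.73 and 2.22 in KO libraries, against 2.39, 2.17 and 2.26 in WT libraries. Like the B cell list, it was highest in KO 1 and KO 2. The Paneth cell list summed to 6971 to 11301 FPKM in KO and 7694 to 13892 FPKM in WT libraries, and the colon list to 75.9 to 96.5 FPKM in KO and 73.0 to 90.6 FPKM in WT libraries. In the colon list Slc26a3 stood at 70.3 to 88.7 FPKM in KO libraries and 66.3 to 83.5 FPKM in WT libraries, Aqp8 reached at most 0.261 FPKM and Car1 at most 1.14 FPKM, and Prdx6b was listed at 0 in all 6 libraries.

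The region of the gut matters for these genes, and part of the profile goes against the label of terminal ileum. Of the distal ileum list, the bile acid transporter gene Slc10a2 stood at 0.342, 0.223 and 0.391 FPKM in KO libraries, against 0.0669, 0.824 and 1.94 FPKM in WT libraries. Fabp6, the ileal bile acid binding protein gene, stood at 0.316, 1.02 and 2.41 FPKM in KO libraries, against 1.22, 0.316 and 9.79 FPKM in WT libraries. Fgf15, an ileal hormone gene induced by bile acids, stood at 0.973, 0.264 and 0.139 FPKM in KO libraries, against 0.595, 0.183 and 7.70 FPKM in WT libraries. These 3, named after their values were seen, are defining genes of the terminal ileum, and each stood at 2.41 FPKM or less in the libraries other than WT 3. Cubn and Amn, the cobalamin receptor genes, were present at 40.5 to 94.6 and 31.1 to 60.3 FPKM in KO libraries, against 34.4 to 126 and 40.1 to 60.7 FPKM in WT libraries. Of the proximal list, Gata4, a factor of the small intestine ahead of the terminal ileum, stood at 37.1 to 49.3 FPKM in KO and 38.9 to 46.2 FPKM in WT libraries. The proximal genes Rbp2 and Apoa4 averaged 1079 ± 197 and 1091 ± 838 FPKM in KO libraries, against 1126 ± 176 and 1397 ± 788 FPKM in WT libraries (SD, n = 3 each). Below, levels are those of the tissue as sampled, whichever stretch it was.

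**Figure D1:**
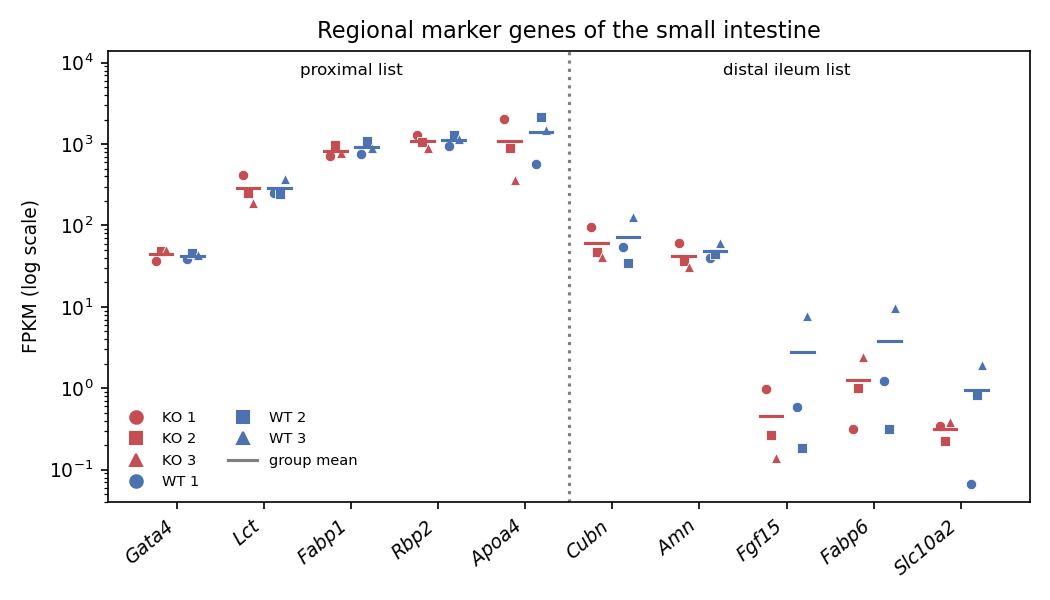
FPKM (log scale) of the proximal and distal ileum marker genes in the 3 KO (red) and 3 WT (blue) libraries; points are libraries and bars group means. Fgf15, Fabp6 and Slc10a2 lie below 10 FPKM in every library, while Gata4 lies between 37.1 and 49.3 FPKM.

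The carriers of peptides and of neutral amino acids at the brush border were the most abundant members, and the subunits of the exchangers formed a tight middle group. Slc15a1 averaged 208 ± 77.6 FPKM and Slc6a19 averaged 164 ± 57.6 FPKM over the 6 libraries (SD, n = 6), above 97.5% and 96.9% of the genes tested. Next came Slc3a1 (103 ± 21.9 FPKM), Slc3a2 (92.7 ± 8.14 FPKM), Slc7a9 (91.2 ± 18.1 FPKM), Slc7a7 (88.4 FPKM, from 74.7 to 105) and Slc7a8 (79.1 ± 9.49 FPKM; SD, n = 6 each). Slc1a1 averaged 22.2 ± 3.57 FPKM, and Slc15a2 came last at 2.84 ± 1.92 FPKM (SD, n = 6), above 15.6% of the genes tested. The order of Slc15a1, Slc6a19 and then the others held in 6 of 6 libraries, and so did Slc1a1 and Slc15a2 in the last places. Between these ends the neighbours could not be ordered: Slc3a1 exceeded Slc3a2 in 4 of 6 libraries, Slc3a2 exceeded Slc7a9 in 3, Slc7a9 exceeded Slc7a7 in 3, and Slc7a7 exceeded Slc7a8 in 4, each mean log2 ratio (0.03 to 0.16) being smaller than its SD (0.19 to 0.23). FPKM is scaled to length, which allows these levels to be set side by side.

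Of the 9 members, 2 had all KO values above all WT values and 0 had all below, against 5.77% and 2.6% of all 12695 genes tested. The members' counts were the same with other scalings, while those shares became 4.28% and 4.11% with median-of-ratios scaling, 4.32% and 3.82% with quantile normalization, and 16.2% and 0.543% after rescaling to an equal sum. Slc15a2 is one of them by choice, which leaves Slc7a8 among 8. By limma at an adjusted p of 0.05, 0 of the 8 members chosen by function passed, and 0.0% of all genes did; at an unadjusted p under 0.05 there were 459 genes (3.62%), of which Slc7a8 was the 1 among these 8.

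**Figure D2:**
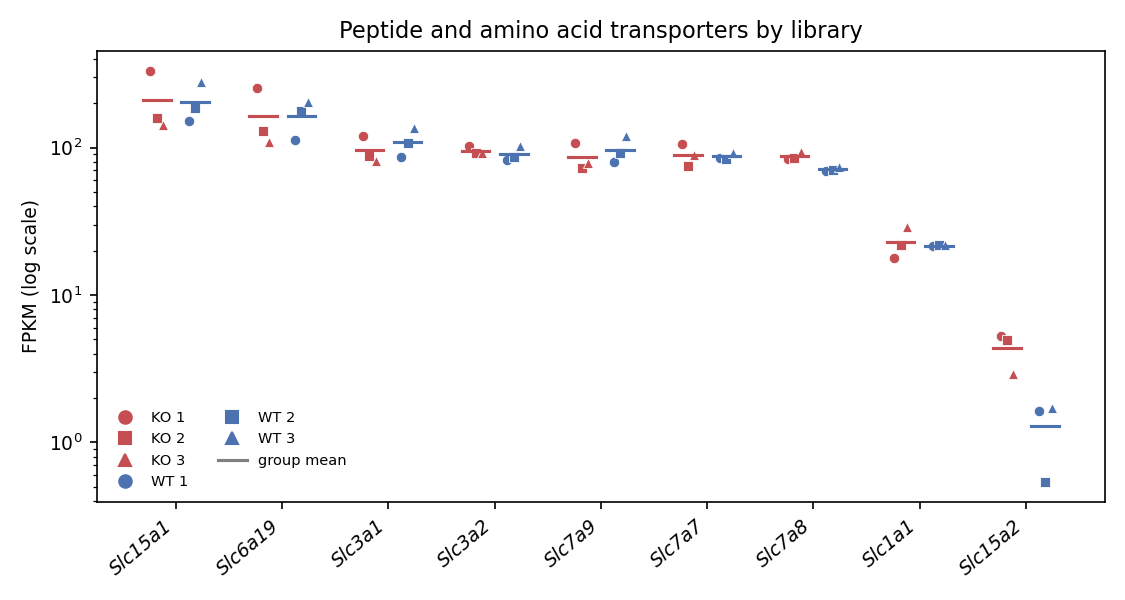
FPKM (log scale) of the 9 transporter genes, from the highest to the lowest mean, in 3 KO (red) and 3 WT (blue) libraries; points are libraries and bars group means. Slc15a2 and Slc7a8 are the 2 genes whose KO points all lie above their WT points.

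The groups overlapped for each of the 4 absorptive brush border members Slc15a1, Slc6a19, Slc7a9 and Slc3a1. Slc15a1, on chromosome 14 from 121459621 to 121505252 (GRCm38, minus strand), stood at 329.5, 159 and 143 FPKM in KO libraries, against 152, 185 and 279 FPKM in WT libraries. KO 1 and WT 3 were high, the other 4 libraries lay within 143 to 185 FPKM, and the groups overlapped. In bulk tissue, fewer cells of a type and less RNA per cell cannot be told apart. The group means were 210.5 ± 103 FPKM in KO and 205 ± 65.8 FPKM in WT libraries (SD, n = 3 each), with a log2 fold change of -0.02 (SE 0.34, limma adjusted p = 0.998). Slc6a19 (chromosome 13, 73679745 to 73704865) followed the same libraries, with 254, 129 and 109.9 FPKM in KO, against 113, 176 and 203 FPKM in WT (log2 fold change -0.05, SE 0.33, limma adjusted p = 0.998). The light chain gene Slc7a9 (chromosome 7, 35448796 to 35466036) stood at 107, 72.2 and 78.6 FPKM in KO libraries, against 79.9, 91.2 and 119 FPKM in WT libraries (log2 fold change -0.17, SE 0.19). Its heavy chain gene Slc3a1 (chromosome 17, 85028376 to 85064236) stood at 119, 87.2 and 81.0 FPKM in KO libraries, against 85.8, 107 and 136 FPKM in WT libraries (log2 fold change -0.19, SE 0.20). In both, KO 1 and WT 3 were again the highest library of their group and the groups overlapped (limma adjusted p = 0.998 each). An exon of Slc3a1 overlaps Prepl on the other strand, and the sources used here do not say whether counting used strand.

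Slc1a1, the glutamate carrier (chromosome 19, 28835049 to 28913960), behaved differently among the KO mice. It stood at 17.9, 21.8 and 28.8 FPKM in KO libraries, against 21.4, 21.7 and 21.8 FPKM in WT libraries (log2 fold change 0.05, SE 0.16, limma adjusted p = 0.998). The WT libraries had an SD of 0.208 FPKM (n = 3), while KO 1 was the lowest and KO 3 the highest of all 6, the reverse of the order of these libraries for Slc15a1. One of its exons overlaps 4430402I18Rik on the other strand.

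On the basolateral side, Slc7a8 was the single member, besides Slc15a2, whose groups did not overlap. Slc7a8, a light chain for neutral amino acids (chromosome 14, 54722209 to 54781946), stood at 83.9, 84.7 and 92.8 FPKM in KO libraries, against 68.9, 70.1 and 74.3 FPKM in WT libraries. Every KO library lay above every WT library, and the means were 87.2 ± 4.92 FPKM in KO and 71.1 ± 2.82 FPKM in WT libraries (SD, n = 3 each), a ratio of 1.23. The log2 fold change was 0.29 (SE 0.09), which did not pass the test across all genes (limma unadjusted p = 0.0139, adjusted p = 0.998), and the exact two-sided permutation p was 0.1, the smallest that 3 against 3 animals allow. Slc7a7, the light chain that exports dibasic amino acids and lies 304.4 kb from Slc7a8 with 23 annotated genes between them, overlapped between the groups. Slc7a7 stood at 105, 74.7 and 89.6 FPKM in KO libraries, against 84.8, 83.9 and 92.5 FPKM in WT libraries (log2 fold change 0.03, SE 0.13, limma adjusted p = 0.998), with the WT values inside the KO range; an exon of it overlaps Oxa1l on the other strand. The shared heavy chain Slc3a2 (chromosome 19, 8706882 to 8723369) stood at 102, 92.6 and 91.5 FPKM in KO libraries, against 82.0, 86.1 and 102 FPKM in WT libraries (log2 fold change 0.09, SE 0.11, limma adjusted p = 0.998), so that WT 3 matched the highest KO library.

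Slc15a2 (chromosome 16, 36750177 to 36784962, minus strand) was the member chosen for its difference, and its values are given as a description. It stood at 5.26, 4.99 and 2.91 FPKM in KO libraries, against 1.63, 0.542 and 1.72 FPKM in WT libraries. At the depths estimated above, these are about 191, 167 and 93 fragments against 61, 20 and 60 if all fell on its longest annotated transcript (3994 bases). All 3 KO values lay above all 3 WT values, KO 1 and KO 2 furthest and KO 3 nearest. The means were 4.39 ± 1.29 FPKM in KO and 1.30 ± 0.657 FPKM in WT libraries (SD, n = 3 each), with a log2 fold change of 1.24 on the log2(FPKM + 1) scale and of 0.57 with a pseudocount of 5. KO 1 and KO 2 were also the libraries high in B cell genes, of which 7 of 7 had estimates above 0 (median log2 fold change 1.53, with 0 passing the test). Cd79b, a B cell receptor component, stood at 21.2, 23.8 and 5.91 FPKM in KO libraries, against 8.22, 5.60 and 3.49 FPKM in WT libraries. In KO 3 the B cell list was at the level of the WT libraries, and with the KO group reduced to that library the log2 fold change of Slc15a2 was 0.81 (a setting chosen after the values were seen). Slc15a2 was chosen as higher in KO, so KO 3 lying above WT is no separate evidence, and the part of the B cell genes in its difference was not tested. The pair of peptide carriers was far from even, with Slc15a1 at 62.6, 31.9 and 49.0 times Slc15a2 in KO libraries, against 92.9, 341 and 162 times Slc15a2 in WT libraries. The groups do not overlap in this ratio, which carries the difference that Slc15a2 was chosen for.

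Apart from Slc15a2, whose libraries differed 9.72 times, Slc15a1, Slc6a19, Slc3a1 and Slc7a9 varied most from mouse to mouse. KO 1 and WT 3 were the highest libraries of their groups for these 4, and also for the basolateral members Slc7a7 and Slc3a2. From the lowest to the highest library, Slc15a1 and Slc6a19 each differed 2.31 times, Slc3a1 1.68 times and Slc7a9 1.65 times, while Slc7a7, Slc7a8 and Slc3a2 differed 1.40, 1.35 and 1.24 times. Slc1a1, also of the brush border, differed 1.61 times, with KO 3 high and KO 1 low. Likeness was measured as the root mean square difference over the 6 libraries between log2(FPKM + 1) profiles, each centred on its own mean, so that 0 is an identical course. The nearest pair of members was Slc7a9 and Slc3a1, whose products form one heterodimer, at 0.0759, and 14 of the other genes tested were nearer to Slc7a9 than Slc3a1 was. Slc15a1 and Slc6a19 lay 0.129 apart, and 4 genes were nearer to Slc15a1 than Slc6a19 was. Slc7a7 and Slc3a2, also partners, lay 0.122 apart, but 551 genes were nearer to Slc7a7, both courses being nearly flat. Slc15a2 lay between 0.602 (Slc7a8) and 0.811 (Slc6a19) from the other members, its relative Slc15a1 at 0.763. Over the 8 enterocyte genes, the mean log2 level deviated by 0.39, -0.26 and -0.38 in KO 1 to 3, against -0.20, 0.07 and 0.38 in WT 1 to 3. Slc15a1 deviated by 0.74, -0.30 and -0.46 in KO libraries, against -0.37, -0.09 and 0.50 in WT libraries, with the same library highest in each group. The part of enterocyte content in this variation was not tested.

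**Figure D3:**
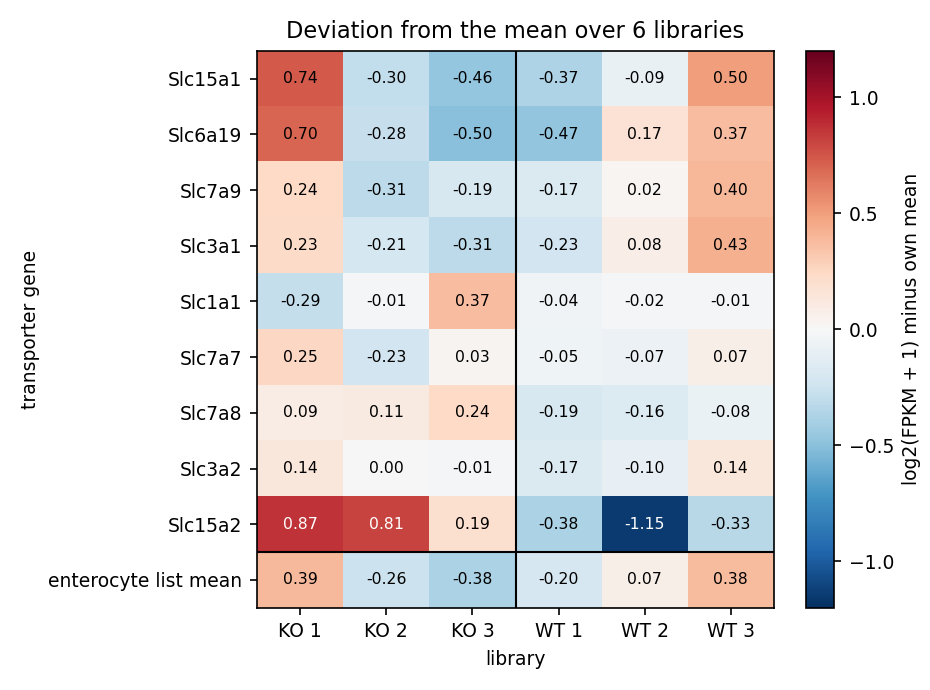
Deviation of each transporter gene from its own mean over 6 libraries, in log2(FPKM + 1), with the mean of the enterocyte list as the bottom row; KO libraries stand left of the line and WT libraries right. KO 1 and WT 3 are high for Slc15a1, Slc6a19, Slc7a9, Slc3a1 and the enterocyte genes, and Slc15a2 has the widest spread, from -1.15 in WT 2 to 0.87 in KO 1.

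The ratio of Slc3a1 to Slc7a9 spanned less than either gene. Slc3a1 was 1.11, 1.21 and 1.03 times Slc7a9 in KO libraries, against 1.07, 1.17 and 1.15 times Slc7a9 in WT libraries, a range of 1.03 to 1.21 beside spans of 1.68 and 1.65 times for the genes themselves. Slc3a2 stood at 0.541, 0.581 and 0.501 of the summed light chains Slc7a7 and Slc7a8 in KO libraries, against 0.533, 0.559 and 0.611 in WT libraries. The groups overlapped in both ratios. Slc7a7 over Slc7a8 was 1.25, 0.881 and 0.966 in KO libraries, against 1.23, 1.2 and 1.25 in WT libraries, even among WT mice and lower in KO 2 and KO 3 but not KO 1.

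Among the genes whose courses lay nearest to Slc15a1 were Ace (0.103), a brush border peptidase gene, and Ston2 (0.125), against a median distance of 0.516 over all genes tested. Ace stood at 425, 257 and 212 FPKM in KO libraries, against 239.6, 277 and 423 FPKM in WT libraries, with KO 1 and WT 3 again highest. Those nearest to Slc15a2, with predicted loci left out, were Fcrl1 (0.246), a B cell surface protein gene, Dbp (0.337), a clock-controlled transcription factor gene, and Mybl1 (0.342), against a median of 0.721. Likeness to a gene chosen as higher in KO favours genes that are higher in KO too. Fcrl1 stood at 3.01, 2.5 and 0.818 FPKM in KO libraries, against 0.751, 0.178 and 0.348 FPKM in WT libraries. Dbp stood at 8.07, 9.69 and 8.48 FPKM in KO libraries, against 5.24, 3.59 and 4.25 FPKM in WT libraries, without the step between KO 2 and KO 3 that Slc15a2 and Fcrl1 show. Mybl1, a transcription factor gene of the Myb family, stood at 2.15, 2.37 and 0.738 FPKM in KO libraries, against 0.912, 0.321 and 1.08 FPKM in WT libraries, so that KO 3 lay inside the WT range.

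**Figure D4:**
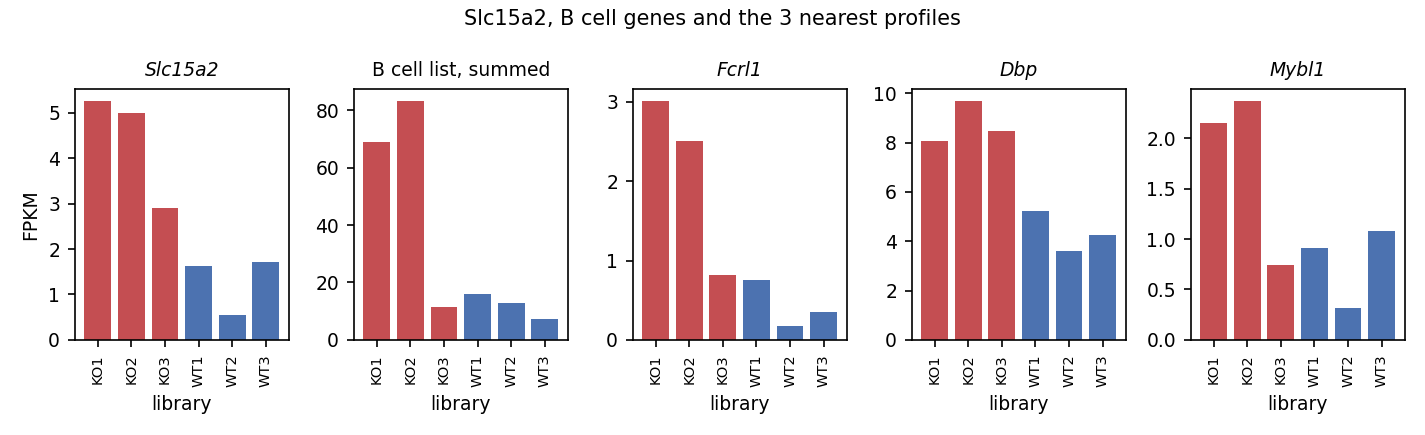
FPKM of Slc15a2, the summed B cell list, and Fcrl1, Dbp and Mybl1, the 3 genes with the nearest courses, as 1 bar per library (KO red, WT blue; each panel has its own scale). The B cell sum is 68.9 and 83.2 FPKM in KO 1 and KO 2 and 11.3 FPKM in KO 3, where Slc15a2 is 2.91 FPKM.

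Among other genes of peptide and amino acid handling, 0 passed the test in either direction in any of the 6 lists. Other Slc15 carriers, known from lysosomal membranes, had estimates within 1 SE of 0: Slc15a3 had a log2 fold change of 0.18 (SE 0.20) and Slc15a4 one of 0.07 (SE 0.12), and Slc15a5 stood at or near 0 FPKM. Of 4 other apical carriers tested of 7 listed, 3 estimates were above 0 (median 0.20, against 0.03 over all genes tested). The taurine carrier gene Slc6a6 was the one whose groups did not overlap, at 57.8, 65.8 and 66.1 FPKM in KO libraries, against 53.8, 56.7 and 48.5 FPKM in WT libraries (log2 fold change 0.25, SE 0.10, limma adjusted p = 0.998). It was 1 of the 4 with all KO values above, beside 5.77% of all genes tested, and was named for the smallest p of its list. The neutral amino acid exchanger gene Slc1a5 had a log2 fold change of 0.16 (SE 0.11) and the proline carrier gene Slc6a20a one of 0.25 (SE 0.20). Of 10 other basolateral or widely expressed carriers tested of 15 listed, 7 estimates were above 0 (median 0.13). Slc7a6, a light chain related to Slc7a7, stood at 4.15, 5.02 and 4.79 FPKM in KO libraries, against 4.07, 3.81 and 3.03 FPKM in WT libraries (log2 fold change 0.29, SE 0.13, limma adjusted p = 0.998). Also named for the smallest p of its list, it was 1 of the 10 with all KO values above, beside 5.77% of all genes tested. The cationic carrier gene Slc7a1 (0.25, SE 0.20) and the branched-chain carrier gene Slc43a2 (0.14, SE 0.13) overlapped between the groups. The cystine and glutamate exchanger gene Slc7a11, named after its values were seen, lay under the filter and stood at 1.48, 1.41 and 0.451 FPKM in KO libraries, against 0.488, 0.468 and 0.542 FPKM in WT libraries.

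Peptidases and anchoring partners had estimates on the other side. All 14 peptidases tested of 15 listed had estimates below 0 (median -0.20), with 0 passing the test and 0 whose groups did not overlap. Anpep (-0.02, SE 0.24) and Mme (-0.04, SE 0.18) were among those near 0. Rescaling to an equal sum moved the median of all genes from 0.03 to 0.13. How many of the 14 stayed below 0 there is not reported here. Mep1b, a meprin subunit gene, averaged 380.2 ± 110.2 FPKM in KO and 471 ± 72.2 FPKM in WT libraries (SD, n = 3 each; log2 fold change -0.34, SE 0.21), the aminopeptidase gene Lap3 had a log2 fold change of -0.31 (SE 0.23) and the dipeptidyl peptidase gene Dpp4 one of -0.25 (SE 0.21). The mean log2 level of the peptidase list was 7.42, 6.78 and 6.73 in KO libraries, against 6.96, 7.02 and 7.55 in WT libraries, highest in KO 1 and WT 3 like the enterocyte list, whose estimates were below 0 for 7 of 8 genes; the part of enterocyte content was not tested. Of 6 partners and ion drivers tested of 7 listed, 4 estimates were below 0 (median -0.17), among them Slc9a3, the sodium and proton exchanger gene that restores the proton gradient PEPT1 uses (-0.34, SE 0.22), and the scaffold genes Pdzk1 (-0.41, SE 0.30) and Slc9a3r1 (-0.16, SE 0.18). The 12 amino acid response genes were split, with 6 estimates above and 6 below 0 (median 0.03). The stress factor gene Ddit3 stood at 7.73, 7.73 and 5.91 FPKM in KO libraries, against 9.94, 8.04 and 12.7 FPKM in WT libraries (log2 fold change -0.45, SE 0.17, limma adjusted p = 0.998), and its activator Atf4 at 69.0, 68.7 and 71.7 FPKM in KO libraries, against 80.9, 72.5 and 83.0 FPKM in WT libraries (-0.17, SE 0.09). Sesn2, a sensor of leucine, stood at 3.46, 3.28 and 3.8 FPKM in KO libraries, against 2.65, 2.56 and 3.16 FPKM in WT libraries (0.25, SE 0.12). In these 3 genes, named for the smallest p of the list, the groups did not overlap (1 of the 12 with all KO values above and 2 with all below, against 5.77% and 2.6% of all genes tested), and 0 of them passed the test.

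**Figure D5:**
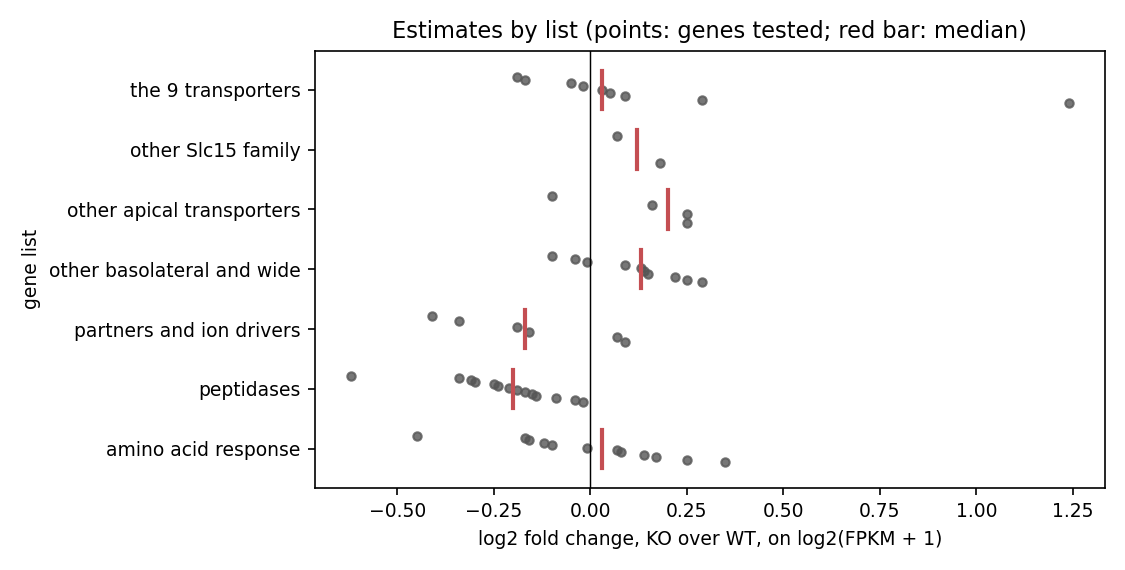
Log2 fold change (KO over WT, on the log2(FPKM + 1) scale) of each tested gene, by list, with the list's median as a red bar. The 14 peptidases lie below 0, with a median of -0.20, and Slc15a2 is the point at 1.24 among the 9 transporters.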

How the data were processed

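RNA from whole tissue labelled terminal ileum of 6 mice was sequenced from directional libraries, per the labels' protocols. The authors deposited FPKM values in 1 table with 1 column per library. Per the submitters' processing notes, the builds were GRCm38 and mm10, and the tools included STAR, Cufflinks and Cuffnorm, with FastQC, Trimmomatic, SAMtools and bedtools. The sources used here give no versions, no scaling between libraries and no use of strand. A count test does not suit FPKM and was not run.

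Columns were matched to samples by genotype and number. The 12695 genes that averaged 1 FPKM or more were tested on log2(FPKM + 1), which understates the change of low genes, with limma 3.58.1 in R 4.3.3 (its trend option, both directions, Benjamini-Hochberg over all genes, threshold 0.05). Tables and figures used Python 3.11.15. The replicates are separate mice. Depth was estimated from genes with 1 annotated transcript longer than 1000 bases, whose lowest values step by 1 fragment. The step was the median of FPKM times length in kilobases among values between 0.085 and 0.15. This window bounds the estimate, so a library of very different depth would not have been seen. The test was run on simulated data drawn from the mean and SD of each of the 12695 genes. It recovered 30.7% of genes changed 1.5 times, 74.3% of those changed 2 times and 96.7% of those changed 4 times, and 32 of 703 calls over 5 simulations were false. Each simulation held a set of genes with planted changes, which eases the adjusted threshold. Its noise was drawn separately for each gene, without variation shared by the genes of a library. These shares therefore cannot be carried over to the measured data, and 0 genes passing there does not show that such changes were absent.

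Members, gene lists and alternatives were chosen with earlier results of these data known. Named genes were the members, Il17ra, the 3 genes with the smallest p of each pathway list, the 2 most abundant of each marker list, and the 3 nearest to Slc15a1 and Slc15a2; others are said to be so, and some genes named by this rule are not reported here. Of the listed symbols, 1 was found under an older symbol. Positions are those of GENCODE M21 (GRCm38), and upstream sequences are from RefSeq (GRCm38.p6), where all 9 members were found. Protein sequences were not used here. The replicate numbers were not treated as pairs in the main fit.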

Additional observations from a re-analysis of the deposited data

How the results depend on the processing

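Under the 18 other settings with a test, 0 of the 8 members chosen by function reached the threshold (lowest limma adjusted p 0.536, for Slc7a8); values relative to the enterocyte mean were not tested. Over all settings the estimates of Slc15a2 (0.57 to 1.78), Slc7a8 (0.24 to 0.46) and Slc3a2 (0.02 to 0.25) stayed above 0, and those of Slc7a9 and Slc3a1 did not rise above it. For Slc15a2 and Slc7a8 all KO values lay above all WT values, so leaving out libraries or changing the pseudocount could not turn their sign. Slc15a2 was moreover chosen as higher in KO, so its steady sign is no support for a difference. Slc15a2 gave 1.78 with a pseudocount of 0.1, 0.57 with one of 5, 0.81 with KO reduced to replicate 3 (chosen after the values were seen), and 0.98 to 1.46 with 1 library left out. Relative to the enterocyte mean, Slc7a8 was 0.46, Slc3a2 0.25, Slc15a1 0.15 and Slc6a19 0.11. Slc15a1 also turned above 0 after rescaling to an equal sum (0.09), quantile normalization (0.05) and a sex term (0.04), and ran from -0.40 to 0.22 with 1 library left out. Slc6a19 likewise gave 0.06, 0.03 and 0.04 in those settings, and -0.42 to 0.19 with 1 left out. Slc7a7 was -0.01 with median-of-ratios scaling, -0.04 without KO 1 and WT 3 together (chosen after the values were seen) and -0.09 to 0.15 with 1 left out. Slc1a1 was -0.03 with a sex term and -0.13 to 0.20 with 1 left out. Rescaling to an equal sum moved the median of all genes to 0.13, against 0.03 as deposited. Among the other named genes, Slc15a3 turned to -0.25 and Slc15a4 to -0.08 with KO reduced to replicate 3, and Slc15a4 to -0.01 without KO 2.

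Across all genes, 0 passed as reported, 2 with a pseudocount of 0.1, with one of 5 and after rescaling to an equal sum, 4 with KO reduced to replicate 3 and 11 without KO 1 and WT 3; with 1 library left out the count ran from 0 to 46, the 46 without KO 3. The replicate number as a block gave 1 gene, and it changed no member's call. Deviations of same-numbered mice correlated at -0.13, 0.03 and -0.11, which shows no likeness by number. With 3 mice in each group these values cannot tell whether the mice were paired. The 2 members with every KO value above every WT value became 1 with a filter of 5 FPKM, which removes Slc15a2, and 4 without KO 1 and WT 3, when Slc3a2 and Slc1a1 joined; it was 2 to 3 with 1 library left out (Slc3a2 joined without WT 3) and 3 with KO reduced to replicate 3, when Slc1a1 joined. Members with every KO value below numbered 0 as reported, 0 to 1 with 1 library left out (Slc7a9 without KO 1), 1 without KO 1 and WT 3 and 4 with KO reduced to replicate 3. With fewer libraries more genes separate by construction: over all genes tested, the shares above and below were 17.6% and 8.91% without KO 1, 8.38% and 8.64% without WT 3, 21.3% and 16.5% without both, and 32.9% and 18.3% with KO reduced to replicate 3. They were 7.89% and 4.48% without KO 2, 11.5% and 5.82% without KO 3, 15% and 5.43% without WT 1, and 10.4% and 6.16% without WT 2. With the filter of 5 FPKM and all libraries they were 4.83% and 2.77%. The cause of the other shifts was not tested. Depth limits Slc15a2, at about 20 fragments in WT 2, more than any other member.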
